A study of Mus musculus with 6 samples.

Results

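The serine synthesis and folate one-carbon enzymes are 10 genes of the 56691 gene identifiers in the deposited table. They were taken by name, after the identifiers had been matched to mouse gene symbols, and all 10 passed the filter on low counts that left 16414 genes. Phgdh, Psat1 and Psph make serine from a glycolytic intermediate, phosphoglycerate. Shmt1 in the cytosol and Shmt2 in the mitochondrion split serine into glycine and a carbon unit carried by tetrahydrofolate. In the mitochondrion Mthfd2 and Mthfd1l turn that unit into formate, in the cytosol Mthfd1 takes formate up again for the synthesis of purines and thymidylate, and Aldh1l2 burns the mitochondrial unit to carbon dioxide. Slc25a32 is the carrier that brings folate into the mitochondrion. Proliferating cells are known for high levels of these enzymes, and several of the genes are known targets of the amino acid stress factor ATF4.

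RNA of 6 mouse libraries was sequenced after amplification with a kit for very small inputs. In the CTM group were 3 libraries of micro-emboli, tumour cell clumps caught on a chip from the blood of mice whose breast cancer had spread to the lung. The control group held 3 libraries of 4T1, a mouse mammary carcinoma line. No allele, drug or age is named for either group. The titles of the 4T1 libraries name a low adherence culture, while their growth protocol describes ordinary medium with serum. The sources used here do not tell whether replicates were separate mice, separate cultures or pools, so each p-value measures only how far these libraries differ among themselves, and that spread may be technical. Growth in an animal, time in blood and capture all differ between the groups and cannot be told apart. In such bulk samples fewer cells of a type and less RNA per cell cannot be told apart either.

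The estimated counts summed to between 69178212 and 71595766 per library, and the 2 least counted of the 10 were Aldh1l2 in 4T1, with 655 to 1805 counts, and Psph in CTM, with 746 to 1103 counts. Levels are given as normalised counts per 1000000 counts (CPM). Within either group, replicates 2 and 3 resembled one another much more than they resembled replicate 1, with a chi-square per gene of 3.15 in 4T1 and 4.25 in CTM where pairs with replicate 1 had 24.2 to 68.9. The summed level of 8 epithelial markers was 1877 to 2261 CPM in 4T1 and 1675 to 1788 in CTM, most of it from Krt8 and Krt18. Of these markers Krt7 (3.17-fold), Krt8 (1.36-fold), Cldn3 (1.81-fold) and Cdh1 (3.99-fold) fell, Krt19 rose 2.86-fold and 3 did not pass. Cdh1 was at 113, 27.8 and 31.0 CPM in 4T1 and 14.8, 13.1 and 15.2 in CTM, so 4T1 replicate 1 enlarged its fold. Epcam, one of those 3, was at 0.352 to 0.669 CPM in all 6 libraries. Markers of platelets summed to 3.39 to 5.56 CPM in 4T1 and 8.23 to 11.3 in CTM over 8 genes, and those of red cells to at most 2.89 CPM over 6 genes. Tubb1, a tubulin of platelets, was at 0 in every library, and of the 4 platelet markers tested Itga2b and Gp1ba rose. The shares over all genes tested were 13.7% lower and 14.2% higher in CTM.

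Serine synthesis transcripts were lower in CTM, and so were those of the cytosolic folate enzymes and of Shmt2, whereas the mitochondrial enzymes Mthfd1l and Aldh1l2 were higher. By edgeR's quasi-likelihood test with Benjamini-Hochberg adjustment over all genes, 6 of the 10 fell, 2 rose and 2 did not pass at an adjusted p of 0.05. Over all genes tested, 13.7% fell and 14.2% rose. The median log2 fold change of the 10 was -1.15, beside -0.02 over all genes. In 6 of them all 3 CTM libraries lay below all 3 4T1 libraries and in 2 they lay above, where 23.5% and 24.8% of all genes did so.

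**Figure D1:**
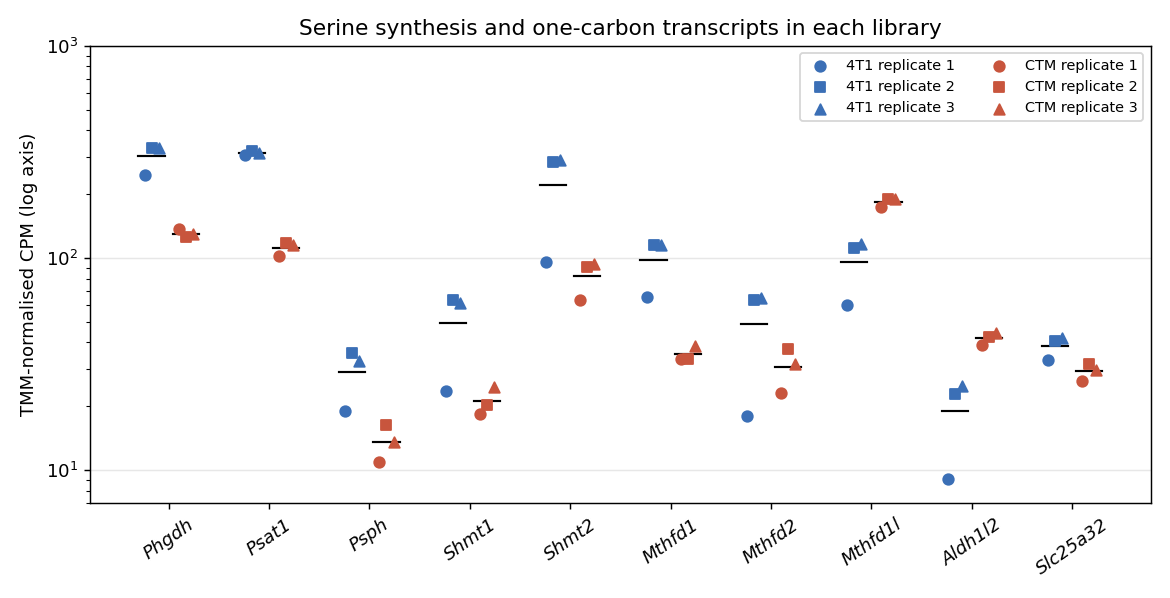
Normalised CPM (log axis) of the 10 transcripts in each of the 6 libraries, with blue points for 4T1, red points for CTM, a marker shape for each replicate number and a black line at the group mean. Mthfd1l and Aldh1l2 sit higher in all CTM libraries, Phgdh and Psat1 sit lower, and 4T1 replicate 1 lies below the other 4T1 libraries, widely so for Shmt2 and Mthfd2.

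Phgdh encodes the dehydrogenase that commits phosphoglycerate to serine. It was at 247, 328 and 331 CPM in 4T1 replicates 1 to 3 and at 137, 125 and 129.7 in CTM replicates 1 to 3. The groups did not overlap, and the lowest 4T1 library was still well above the highest CTM library. The transcript fell by 1.21 on the log2 scale (SE 0.13, n = 3 each, edgeR adjusted p = 0.00132), which is 2.32-fold.

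Psat1 encodes the aminotransferase of the next step. It had 305, 320 and 314 CPM in 4T1 and 102, 118 and 116 in CTM. Psat1 was the steadiest of the 10 within the culture, with 313 ± 7.39 CPM (SD, n = 3), and replicate 1 did not stand apart. It fell by 1.49 on the log2 scale (SE 0.09, n = 3 each, edgeR adjusted p = 0.000314), or 2.80-fold, and was the single member to pass a test against a 2-fold minimum.

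Psph encodes the phosphatase that releases free serine. Per kilobase of exon its level was the lowest of the enzymes of serine synthesis. Psph was at 19.1, 35.7 and 32.5 CPM in 4T1 and 10.9, 16.3 and 13.5 in CTM. The groups did not overlap, although 4T1 replicate 1 came close to CTM replicate 2. Psph fell by 1.10 on the log2 scale (SE 0.26, n = 3 each, edgeR adjusted p = 0.0206).

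Both serine hydroxymethyltransferases were lower in CTM by the test. Shmt2, the mitochondrial form, was at 95.5, 282 and 288 CPM in the 4T1 libraries against 63.3, 90.6 and 94.2 in the CTM libraries. It fell by 1.42 on the log2 scale (SE 0.40, n = 3 each, edgeR adjusted p = 0.0379), but 4T1 replicate 1 lay just above the highest CTM library. Shmt1, the cytosolic form, was at 23.5, 63.6 and 61.4 CPM in the 4T1 libraries against 18.4, 20.3 and 24.8 in the CTM libraries. Here 4T1 replicate 1 lay inside the CTM range, so that the groups overlapped, and the fall of 1.23 on the log2 scale (SE 0.36, n = 3 each, edgeR adjusted p = 0.0424) rested on 4T1 replicates 2 and 3. Liver makes much Shmt1, and transcripts of hepatocytes were found in all 6 libraries. Over 10 hepatocyte markers the sum was 861, 803 and 824 CPM in 4T1 and 734, 333 and 234 in CTM, none of the 10 passed, and their part in the Shmt1 values was not tested.

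Mthfd1 is the cytosolic enzyme that moves one-carbon units between oxidation states. It was at 65.3, 114.9 and 114.6 CPM in the 4T1 libraries against 33.6, 33.5 and 38.3 in the CTM libraries, without overlap. It fell by 1.48 on the log2 scale (SE 0.22, n = 3 each, edgeR adjusted p = 0.00381). Its mitochondrial relative Mthfd1l, which releases formate, moved the other way. Mthfd1l was at 59.7, 112 and 117 CPM in the 4T1 libraries against 174, 191 and 189 in the CTM libraries, and all CTM libraries lay above the culture. The rise was 0.94 on the log2 scale (SE 0.24, n = 3 each, edgeR adjusted p = 0.0262), or 1.92-fold.

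Aldh1l2, the mitochondrial dehydrogenase that oxidises formyl-tetrahydrofolate and makes NADPH, rose as well. It was at 9.10, 22.8 and 25.0 CPM in the 4T1 libraries against 38.7, 42.6 and 44.3 in the CTM libraries. The groups did not overlap, and the rise was 1.14 on the log2 scale (SE 0.34, n = 3 each, edgeR adjusted p = 0.0463). Aldh1l2 shares 1056 exonic bases with D10Wsu102e, a gene on the opposite strand, and since no strand is stated for the counting its level is uncertain. D10Wsu102e had 54.8 CPM on average in CTM and 60.8 in 4T1 and did not pass (edgeR adjusted p = 0.431).

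Mthfd2, the mitochondrial dehydrogenase and cyclohydrolase, did not pass. It was at 18.0, 63.7 and 65.0 CPM in the 4T1 libraries against 23.04, 37.2 and 31.8 in the CTM libraries. All 3 CTM libraries lay between 4T1 replicate 1 and the other 4T1 libraries, and the log2 difference was -0.67 (SE 0.46, n = 3 each, edgeR adjusted p = 0.312). Slc25a32, the mitochondrial folate carrier, was at 32.9, 40.7 and 42.0 CPM in the 4T1 libraries against 26.2, 31.8 and 29.6 in the CTM libraries. Its CTM values all lay below the culture, but the log2 difference of -0.40 (SE 0.13, n = 3 each) missed the threshold (edgeR adjusted p = 0.065). Slc25a32 passed in 7 of 19 alternative fits, among them the replicate block in edgeR, DESeq2, and library totals alone in edgeR. The adjusted p in these 3 was 0.045, 0.0248 and 0.0433. In the other 12 fits, limma voom among them, it did not pass.

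**Figure D2:**
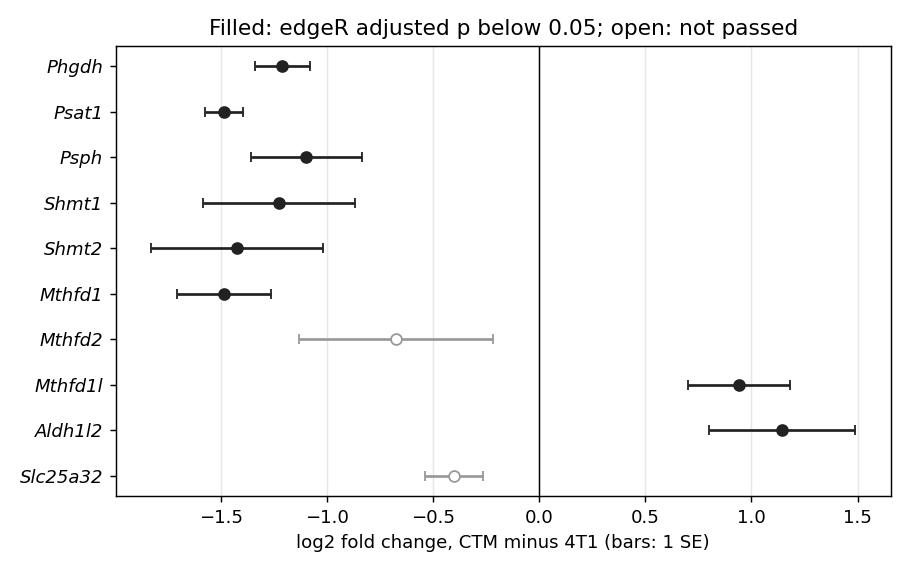
Log2 fold change between CTM and 4T1 for each transcript with a bar of 1 SE on either side, filled where the edgeR adjusted p was below 0.05. Mthfd1l and Aldh1l2 lie to the right of 0, the other 8 to the left, and Mthfd2 has the widest bar.

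Several of these calls were lost in fits that left out 1 library and so had fewer samples. Shmt1, Shmt2 and Aldh1l2 did not pass whichever library was left out, except in the fit without 4T1 replicate 1. Phgdh, Psat1 and Mthfd1 passed in each of the 6 fits that left out 1 library. Without 4T1 replicate 1 all 10 genes passed, 8 lower and 2 higher, with Mthfd2 at -1.07 (edgeR adjusted p = 0.00514) and Slc25a32 at -0.50 (edgeR adjusted p = 0.00901). More genes passed in that fit as a whole, 3323 higher and 3326 lower of 16902, where all 6 libraries gave 2323 and 2252 of 16414. Without 4T1 replicate 2, or without 4T1 replicate 3, 3 were lower and Mthfd1l alone was higher. In 3 fits neither Mthfd1l nor Aldh1l2 passed: without CTM replicate 1, or without CTM replicate 3, 3 were lower and 0 higher, and without CTM replicate 2, 4 were lower, Psph among them, and 0 higher. Over all genes, leaving out any library other than 4T1 replicate 1 gave only 1334 to 1984 higher and 1208 to 1801 lower. When the close replicates 2 and 3 of each group were averaged and counted as 1 sample, Psat1 alone passed (edgeR adjusted p = 0.0323). No fit turned the direction of any of the 10.

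Levels can be set beside each other only per length, for which CPM was divided by the length of all exons of a gene in kilobases. On this scale of CPM per kilobase the culture ran from Phgdh at 122 ± 19.2 over Psat1 at 73.6 ± 1.74 and Shmt2 at 71.4 ± 35.3 down to Aldh1l2 at 2.53 ± 1.15 (SD, n = 3 each). Psat1 and Shmt2 overlapped between libraries. In between, Mthfd1, Mthfd1l, Mthfd2, Shmt1, Psph and Slc25a32 formed a row of means from 22.1 down to 6.34. Across libraries each gene of the row overlapped its neighbours, although within each 4T1 library Mthfd1l stood above Mthfd2 and Shmt1 above Psph. Aldh1l2 lay below them all. In CTM Phgdh was again first, at 52.5 ± 2.37, but Mthfd1l was second at 41.6 ± 2.02 and did not overlap Phgdh above it or Shmt2 at 26.6 ± 5.43 below it (SD, n = 3 each). Psat1, at 26.3 ± 2.03, overlapped Shmt2. Mthfd2 at 8.79 and Mthfd1 at 7.90 overlapped, as did Aldh1l2 at 5.59, Shmt1 at 5.45 and Slc25a32 at 4.8, and Psph at 3.14 was last.

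Ratios of paired enzymes within a library do not depend on how libraries are scaled. The log2 ratio of Mthfd1l to Mthfd1 CPM was -0.13, -0.04 and 0.03 in 4T1 and 2.38, 2.51 and 2.30 in CTM. The means of -0.05 ± 0.08 and 2.40 ± 0.10 (SD, n = 3 each) differed by 2.44, a 5.44-fold shift towards the mitochondrial transcript, and 4T1 replicate 1 did not stand apart in it. Between 3 and 3 libraries the two-sided exact permutation test gave p = 0.1, the smallest it can give, for this ratio and also for Mthfd2 to Mthfd1 and Psat1 to Phgdh. Adjusted over the 4 ratios by the Benjamini-Hochberg method, these exact p-values became 0.133.

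The ratio of Mthfd2 to Mthfd1 was -1.86, -0.85 and -0.82 in 4T1 and -0.54, 0.15 and -0.27 in CTM on the log2 scale, a mean difference of 0.96. Both ratios with Mthfd1 were thus higher in every CTM library than in every 4T1 library. The ratio of Shmt2 to Shmt1 overlapped, at 2.02 to 2.23 in 4T1 and 1.78 to 2.16 in CTM (exact permutation p = 0.3, n = 3 each). That of Psat1 to Phgdh was 0.06 ± 0.21 in 4T1 and -0.22 ± 0.18 in CTM (SD, n = 3 each), a difference of -0.29 that is small beside the fall of both genes.

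**Figure D3:**
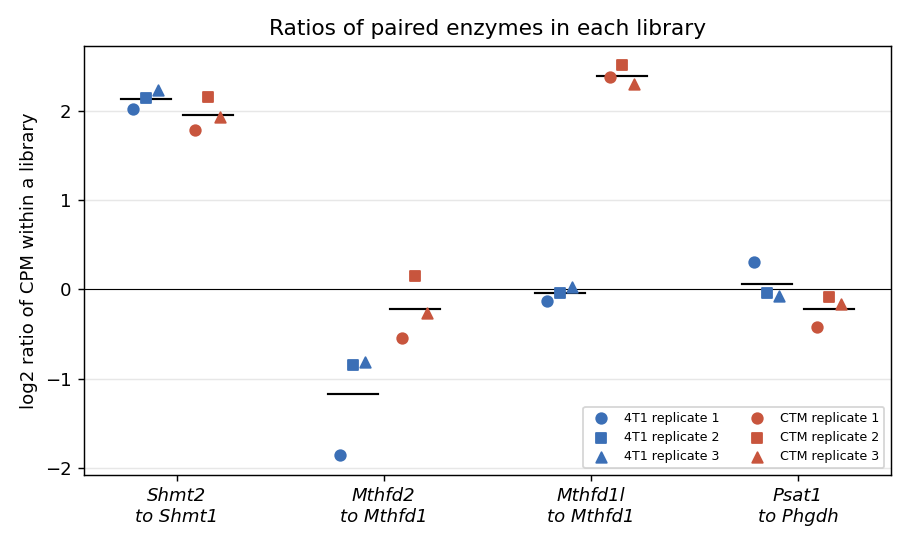
Log2 ratio of the CPM of a pair of enzymes within each library, blue for 4T1 and red for CTM, with a black line at the group mean. The Mthfd1l to Mthfd1 ratio lies near 0 in all 4T1 libraries and between 2.30 and 2.51 in CTM.

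The culture itself was not uniform. In 4T1 replicate 1 all 10 transcripts were lower than in the mean of replicates 2 and 3, and 4 of them at least 2-fold lower, namely Mthfd2 by 3.58-fold, Shmt2 by 2.99-fold, Shmt1 by 2.65-fold and Aldh1l2 by 2.63-fold. Of the 9519 tested genes with a mean of at least 10 CPM, 1.89% were at least 2-fold lower in that library and 3.13% at least 2-fold higher. The median log2 difference of that library over these genes was -0.06, beside -0.89 for the 10. Psat1 differed there by 1.04-fold and Phgdh by 1.33-fold. With 1 library on one side none of this can be tested. For comparison, 0.158% of these genes differed 2-fold between 4T1 replicates 2 and 3, and 1.3% between CTM replicate 1 and the mean of CTM replicates 2 and 3. In CTM replicate 1 all of the enzymes but Phgdh were also lower than in the mean of CTM replicates 2 and 3, but mostly by less than in the culture. On the log2 scale Mthfd2 differed by -0.58, Shmt2 by -0.55 and Psph by -0.45, while Mthfd1 differed by -0.10 and Mthfd1l by -0.12. How many of all genes were lower by any amount in either replicate 1 was not counted.

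The libraries numbered 1 and those numbered 2 and 3 gave different sizes for the same comparison. Between CTM replicate 1 and 4T1 replicate 1 the log2 difference was -0.59 for Shmt2, -0.36 for Shmt1 and 0.36 for Mthfd2. Between the means of replicates 2 and 3 it was -1.63, -1.47 and -0.90. Mthfd2 thus had opposite signs in these comparisons of single libraries and of pairs. Aldh1l2 had 2.09 and 0.86, and Mthfd1l 1.54 and 0.73, positive in both. Psat1 was nearly the same in both, at -1.58 and -1.44.

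**Figure D4:**
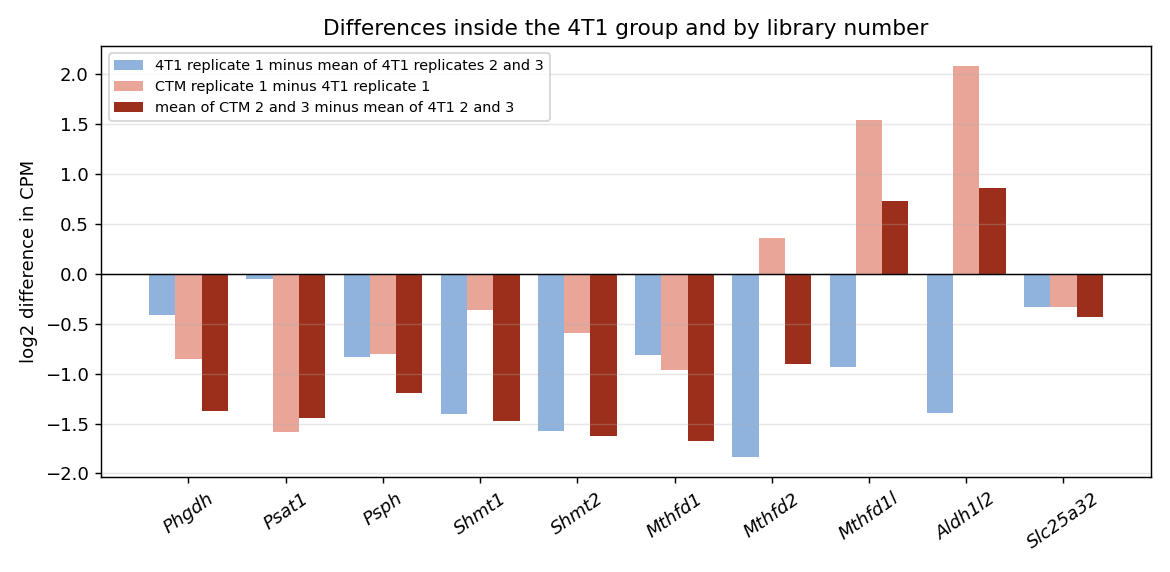
Log2 differences in CPM for each transcript: 4T1 replicate 1 against the mean of 4T1 replicates 2 and 3 (blue), CTM replicate 1 against 4T1 replicate 1 (light red) and the mean of CTM replicates 2 and 3 against that of 4T1 replicates 2 and 3 (dark red). Every blue bar lies below 0, and Mthfd2 has light and dark red bars of opposite sign.

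Genes linked to ATF4 were mostly lower in 4T1 replicate 1. Over the 14 genes tested the median log2 difference from replicates 2 and 3 was -0.54. Nupr1 and Stc2 were higher there, and Slc7a11 was nearly level. Atf4 itself was at 71.0, 200.2 and 199 CPM in the 4T1 libraries against 209, 290 and 273 in the CTM libraries. Asns, the asparagine synthetase gene and a classical ATF4 target, was at 39.4, 298 and 288 CPM in the 4T1 libraries against 128, 175 and 164 in the CTM libraries, so that, as for Mthfd2, the CTM libraries lay between 4T1 replicate 1 and the others. Nupr1, a stress gene of the same list, was the reverse, at 239.8, 28.3 and 26.8 CPM in 4T1 and 78.9, 80.8 and 70.8 in CTM. Slc7a11, the cystine carrier gene, was flat within the culture, at 47.9, 49.6 and 47.5 CPM, and had 17.9, 62.2 and 64.6 in CTM. Of 14 such genes tested outside the 10 enzymes, 4 rose (Ddit3, Sesn2, Trib3 and Stc2), Slc7a5 fell and 9 did not pass, Atf4, Asns, Nupr1 and Slc7a11 among them, with a median log2 fold change of 0.10. The shares over all genes tested were 14.2% higher and 13.7% lower. Trib3, a pseudokinase induced by ATF4, was at 19.2, 51.6 and 49.9 CPM in the 4T1 libraries against 88.1, 129 and 125 in the CTM libraries. Phgdh, Psat1 and Psph were thus lower in the same CTM libraries in which Trib3 and Sesn2 were higher.

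Lower glycolysis, which makes the substrate of serine synthesis, was higher in CTM. All 5 genes of lower glycolysis rose, with a median log2 fold change of 0.86, among them Pgk1, whose product is the substrate of Phgdh, by 2.89-fold and Pgam1, which draws that substrate further down glycolysis, by 1.82-fold. Gapdh and Pgk1 have many processed pseudogenes, so their levels are uncertain. Among 12 genes of serine transport and use, Serinc1 and Slc1a4 rose, Sfxn1 and Slc1a5 fell and 8 did not pass, the median of the log2 fold changes being -0.11. These counts were near the shares over all genes tested, of which 14.2% rose and 13.7% fell. Slc1a4, a plasma membrane carrier of serine and alanine, was at 33.1, 52.6 and 56.2 CPM in the 4T1 libraries against 61.8, 88.9 and 95.5 in the CTM libraries. Sfxn1, the mitochondrial serine carrier, was at 105, 121 and 121 CPM in the 4T1 libraries against 79.9, 81.2 and 83.8 in the CTM libraries.

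In the lists of purine synthesis, further folate genes and the methionine cycle some genes fell and none rose. Over all genes tested 13.7% fell and 14.2% rose, and these short lists were not tested as sets. Of 12 purine synthesis genes 7 fell and none rose (median log2 fold change -0.73), with Gart, which takes up a formyl group from folate, at 66.0, 100.1 and 106 CPM in 4T1 and 28.6, 37.1 and 39.5 in CTM. Ppat, Adsl and Prps2, which work in the same path, were among the others that fell. Of 13 further folate genes 3 fell and none rose (median log2 fold change -0.44). Among them were Tyms, the thymidylate synthase gene, by 2.90-fold, and Fpgs, which keeps folate in the cell, by 2.08-fold. Mthfd2l, the other mitochondrial dehydrogenase of the folate path, was at 9.68 to 12.8 CPM in 4T1 and 11.6 to 12.9 in CTM and did not pass. Of 12 genes of the methionine cycle and transsulfuration 5 fell and none rose (median log2 fold change -0.84), namely Mtap, Mat2a, Ahcy, Amd1 and Cth. Cth, which makes cysteine from cystathionine, was at 27.5, 57.9 and 59.4 CPM in 4T1 and 7.43, 19.8 and 19.8 in CTM.

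Of 6 tested genes of glycine handling, Gcsh and Gcat fell and Amt rose (median log2 fold change -1.03), where 13.7% of all genes tested fell and 14.2% rose. Amt was low, at 1.68 to 2.96 CPM in 4T1 and 4.99 to 5.98 in CTM. Gldc, the glycine decarboxylase gene without which the cleavage system cannot work, was at no more than 1.32 CPM in any library and did not pass. Among regulators, Myc was at 69.9, 140.1 and 143 CPM in 4T1 and 131, 145 and 157 in CTM and did not pass, and of 4 tested genes of the MYC and NRF2 list Nfe2l2 and Max rose and none fell.

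Proliferation genes were lower in CTM, as were the enzymes that fell. All 20 genes of the cell cycle list fell, where 13.7% of all genes tested fell and 14.2% rose. The median of the log2 fold changes of these 20 genes was -1.40. Their summed level was 4239 CPM in 4T1 replicate 1, 6158 and 6268 in replicates 2 and 3, and 2346, 2190 and 2199 in CTM. The CTM sums lay close together, with replicate 1 highest, so little can be read from their order. Of the CTM libraries, replicate 1 was the highest for Phgdh (137 CPM). It was the lowest for Psat1 (102 CPM), Psph (10.9), Shmt1 (18.4) and Shmt2 (63.3), and Mthfd1 was highest in CTM replicate 3 (38.3). The part of cell division in the enzyme levels was not tested. The sums of leukocyte markers were 77.2, 35.9 and 39.4 CPM in 4T1 and 376, 173 and 165 in CTM over 12 genes, of which Cd68 alone rose; Ptprc, which all leukocytes carry, was at 0 to 1.34 CPM, and Mpo was at 0 in every library. The 6 endothelial markers summed to 29.9 to 33.1 CPM in 4T1 and 15.2 to 21.8 in CTM, with Cdh5 and Egfl7 lower, and the 7 fibroblast markers to 185 to 196 and 251 to 266, mostly Pdgfra, which rose 1.55-fold. Pdgfrb (2.10-fold) and Col1a1 (1.84-fold) fell, the median of the log2 fold changes of the 5 fibroblast markers tested was -0.76, and Lum was at 0. The part of these cell types was not tested either.

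**Figure D5:**
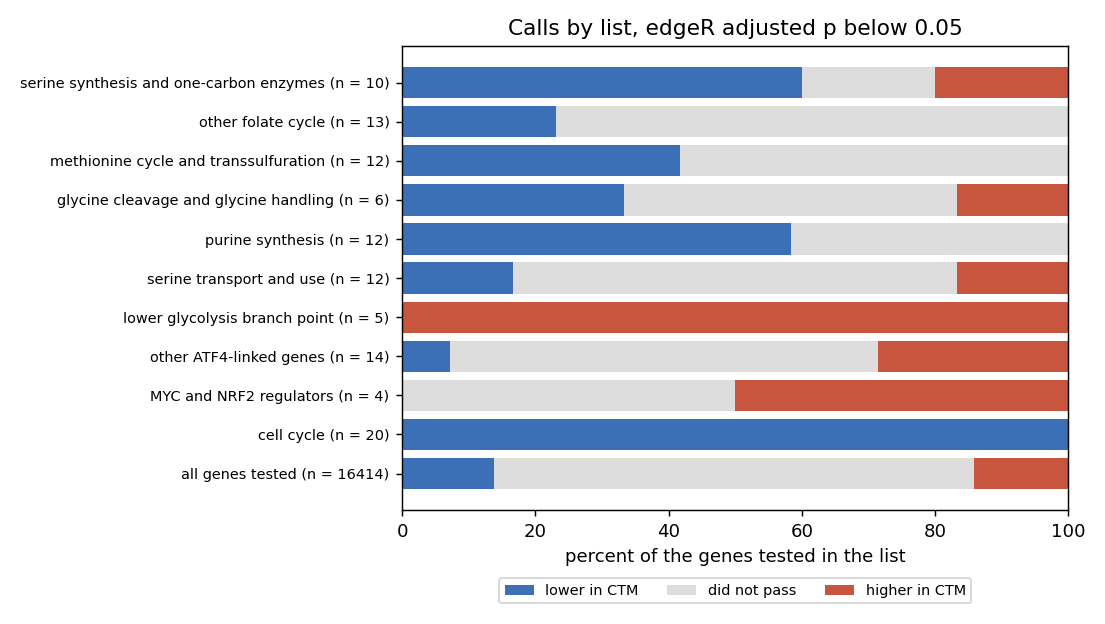
Percent of the tested genes of each list that were lower in CTM (blue), did not pass (grey) or were higher (red) at an edgeR adjusted p below 0.05, with the share over all 16414 genes in the lowest bar. Lower glycolysis is wholly red, the cell cycle list wholly blue, and the 10 serine and one-carbon enzymes are split between both colours.

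The genes most alike in pattern were found by Pearson's r of log2 CPM over the 6 libraries among 9011 genes with a mean of at least 10 CPM that were neither predicted genes nor pseudogenes, as a description, since the libraries fall into 2 groups and any gene that differs between them scores high. For Phgdh these were Tsen34, Cip2a, Ccnb2, H2afx and E2f7, with r from 0.9991 to 0.9997. For Psat1 they were Ttc8, Ankrd1, Cyc1, Ywhab and S100a11, with r from 0.9989 to 0.9995. Ccnb2, a mitotic cyclin, was at 110.02, 159 and 156 CPM in 4T1 and 51.7, 46.7 and 51.3 in CTM, with a lower 4T1 replicate 1 as for Phgdh. Ttc8 was at 124, 127 and 124 CPM in 4T1 and 37.5, 45.5 and 44.1 in CTM, flat within the culture as Psat1 was.

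Promoters of 8 of the 10 genes were found in RefSeq's table for GRCm38.p6, as 300 bases from 250 before to 50 after a start; Aldh1l2 and Slc25a32 were not matched. They were searched on both strands for TGATGNAA, the composite C/EBP and ATF4 element, and for the box bound by NF-Y (CCAAT). The E-box (CACGTG) and ACGTG, a form of the core of the hypoxia element, were searched as well. GCGTG, another form of that core, was not searched, so a promoter without ACGTG may still hold a core. ACGTG lies within every E-box, so that search overlaps the one for CACGTG. TGATGNAA was in none of the 8 genes, in 3.97% of all 32851 promoters and in 6 of 14 other ATF4-linked genes, Asns and Trib3 among them. CACGTG was in none of the 8 and in 7.15% of all promoters. CCAAT was in 6 of the 8, in 37.4% of all promoters and in 16 of 17 cell cycle genes. The 2 without it were Shmt2 and Mthfd1l. ACGTG was in 3 of the 8, namely Psph, Mthfd1l and Psat1 at its other listed start, and in 19.6% of all promoters. A gene was counted if any of its listed starts matched, whereas the percents are of single promoters, so gene shares may run higher. A match or its lack says nothing about binding in these cells.

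The promoters of both enzymes with the smallest p and of the related pair that moved in opposite directions are shown in lower case. The NF-Y box and ACGTG, each on either strand, are in capitals, and GCGTG was not marked. Phgdh (chr3:98339920-98340219, minus strand) has 2 NF-Y boxes, and 1 of 2 listed starts of Psat1 (chr19:15925010-15925309, minus strand) has 3. Mthfd1 (chr12:76254982-76255281, plus strand) has 1, and Mthfd1l (chr10:3972825-3973124, plus strand) has no NF-Y box but has 2 matches to ACGTG.
Phgdh: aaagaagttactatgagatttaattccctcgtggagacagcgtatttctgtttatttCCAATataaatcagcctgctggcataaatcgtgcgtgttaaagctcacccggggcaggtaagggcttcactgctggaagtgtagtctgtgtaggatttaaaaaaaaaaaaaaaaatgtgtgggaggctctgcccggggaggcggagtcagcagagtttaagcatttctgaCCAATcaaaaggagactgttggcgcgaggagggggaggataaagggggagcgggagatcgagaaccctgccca
Psat1: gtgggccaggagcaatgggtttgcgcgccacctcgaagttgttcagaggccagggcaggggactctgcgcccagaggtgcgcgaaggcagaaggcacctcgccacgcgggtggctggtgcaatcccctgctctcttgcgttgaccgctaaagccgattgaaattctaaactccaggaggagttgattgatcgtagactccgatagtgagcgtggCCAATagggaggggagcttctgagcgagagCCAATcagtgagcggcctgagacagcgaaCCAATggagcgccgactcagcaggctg
Mthfd1: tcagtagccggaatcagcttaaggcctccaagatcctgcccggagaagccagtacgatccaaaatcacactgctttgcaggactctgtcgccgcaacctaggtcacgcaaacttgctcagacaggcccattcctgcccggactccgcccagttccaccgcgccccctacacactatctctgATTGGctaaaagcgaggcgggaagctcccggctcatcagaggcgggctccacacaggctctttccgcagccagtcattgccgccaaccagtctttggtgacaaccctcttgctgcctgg
Mthfd1l: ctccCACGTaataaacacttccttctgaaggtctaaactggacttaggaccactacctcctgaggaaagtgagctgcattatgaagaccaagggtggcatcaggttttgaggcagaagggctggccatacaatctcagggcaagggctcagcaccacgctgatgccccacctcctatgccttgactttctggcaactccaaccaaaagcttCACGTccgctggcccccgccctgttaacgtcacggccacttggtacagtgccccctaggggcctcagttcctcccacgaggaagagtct

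Other exonic overlaps on the opposite strand were 452 bases of Psph with Cct6a, 184 of Shmt1 with Smcr8, 37 of Mthfd1 with Gm47525 and 32 of Shmt2 with Ndufa4l2. Cct6a had 239 CPM on average in CTM and 279 in 4T1 (edgeR adjusted p = 0.359), well above Psph, so the level of Psph is uncertain. Smcr8 had 77.1 and 64.8 CPM (edgeR adjusted p = 0.265), above Shmt1 at 21.2 in CTM and 49.5 in 4T1. The level of Shmt1 and the ratio of Shmt2 to Shmt1 are thus uncertain too. Gm47525 had at most 0.0692 CPM and Ndufa4l2 at most 0.332 CPM in any library. A pseudogene of Phgdh, Phgdh-ps1, had 1.02 to 2.41 CPM and may share reads with it.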

How the data were processed

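Total RNA was amplified for sequencing, per the labels' protocols. Bowtie 0.12.2, HISAT2 2.0.4, edgeR and the build mm8 stand in the submitters' processing notes, without roles. How reads were counted, and on which annotation, is not stated in the sources used here. The authors deposited whole-number estimated counts per Ensembl gene, so no rounding was needed. Low values pile up at multiples of 4, so counting error may exceed what the totals imply.

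Symbols were found for 52073 of 56691 identifiers; where several identifiers shared a symbol, the one with the highest total was used. Libraries were grouped by their description label. Low genes were removed with filterByExpr, library sizes were scaled by TMM, and edgeR 4.0.16 (R 4.3.3) was used to fit a quasi-likelihood model to all 6 libraries, with two-sided F tests, with Benjamini-Hochberg adjustment over 16414 genes and a threshold of 0.05. The SE was taken from the fold change and the F statistic. Exon lengths and overlaps came from GENCODE M21 and promoters from RefSeq, both on GRCm38, so they may differ from the authors' annotation. The genes, lists and tests were chosen with earlier results of these data known. All 10 enzymes are named; of other lists at most the 4 genes with the smallest p were named by rule, plus members of counts of 5 or fewer. For Phgdh and Psat1 the 5 genes with the most similar levels were named. Atf4, Asns, Nupr1, Slc7a11, Mthfd2l, Gldc and some cell type markers were added after their values were seen. Values of some list genes are not reported here. Alternatives were DESeq2 1.42.0, limma 3.58.1 voom, other scalings and filters, a replicate block, a batch term, averaged or omitted libraries, counts divided by 4 and a 2-fold minimum. The edgeR, DESeq2 and voom fits by group alone were tested on simulated data. The exact permutation test was checked on a made-up set of fully separated values, and the other alternatives were not simulated.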

Additional observations from a re-analysis of the deposited data

How the results depend on the processing

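No alternative turned the direction of any of the 10 enzymes or of a ratio. The counts of enzymes lower and higher in CTM, 6 and 2, became 3 and 0 with no filter on low counts, 1 and 0 with the libraries numbered 2 and 3 averaged as 1 sample, 1 and 0 against a 2-fold minimum, and 1 higher with library totals alone, where Aldh1l2 no longer passed (edgeR adjusted p = 0.0614). Leaving out 1 library gave 3 to 8 lower and 0 to 2 higher. limma voom gave 4 lower, without Shmt1 and Shmt2. The median of all genes moved from -0.02 to -0.11 on the log2 scale with library totals alone. The same-numbered libraries did not deviate together (r = 0.0635, 0.0161 and 0.0121 across genes) and not each correlated best with its own number; the fit with the replicate block gave 7 lower and 2 higher, adding Slc25a32 (edgeR adjusted p = 0.045).

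Both libraries numbered 1 left out gave 6 lower and 1 higher for other folate genes, 9 and 1 for the methionine cycle, 2 higher for glycine handling, 1 higher for purine synthesis, 5 lower and 6 higher for serine transport and use, and 4 lower and 9 higher for ATF4-linked genes. DESeq2 gave 1 higher other folate gene and 1 higher purine gene; counts divided by 4 and the filter of 5 CPM in 3 libraries also gave 1 higher purine gene, and that filter removed the higher glycine gene, leaving 0. Library totals alone left 1 higher gene in serine transport and in the MYC and NRF2 list. With no filter, 3 methionine and 4 purine genes were lower, 1 serine transport, 2 ATF4-linked and 1 MYC and NRF2 gene higher, and 0 ATF4-linked genes lower.

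With the averaged pairs, 10 cell cycle genes were lower, 2 glycolysis and 2 ATF4-linked genes higher, and the counts in both directions of the folate, methionine, glycine, purine, serine transport and MYC and NRF2 lists, and of lower ATF4-linked genes, were 0. Against the 2-fold minimum they were likewise 0, with 1 cell cycle gene lower and 1 glycolysis and 1 ATF4-linked gene higher. Over all genes these fits called 276 higher and 200 lower, and 102 and 59, instead of 2323 and 2252; without both libraries numbered 1 it was 4239 and 4340, and leaving out 1 library gave 1334 to 3323 higher and 1208 to 3326 lower. Fewer samples, or a stricter null, were tested there.

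Leaving out 1 library gave 2 to 4 lower and 0 to 1 higher other folate genes, 3 to 5 lower methionine genes, 2 to 3 lower and 0 to 1 higher glycine genes, 3 to 8 lower and 0 to 1 higher purine genes, 1 to 3 lower and 1 to 4 higher serine transport genes, 4 to 5 higher glycolysis genes, 0 to 2 lower and 2 to 6 higher ATF4-linked genes, 0 to 2 higher MYC and NRF2 genes and 19 to 20 lower cell cycle genes. The cause of these changes was not tested.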

Other observations

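One-carbon genes of liver were detectable in both groups at low levels, beside the hepatocyte markers given above. Bhmt, which remethylates homocysteine in liver, was at 25.3, 23.6 and 14.8 CPM in the 4T1 libraries against 14.4, 3.22 and 10.4 in the CTM libraries, and did not pass (edgeR adjusted p = 0.121). Gnmt, the liver enzyme that methylates glycine, was at 3.08, 2.70 and 3.45 CPM in the 4T1 libraries against 2.86, 1.15 and 0.698 in the CTM libraries (edgeR adjusted p = 0.192). Aldh1l1, the cytosolic counterpart of Aldh1l2, was at 6.24, 5.70 and 5.83 CPM in the 4T1 libraries against 5.80, 2.88 and 3.68 in the CTM libraries (edgeR adjusted p = 0.197). In all 3 genes CTM replicate 1 was the highest of the CTM libraries, as it was for the summed hepatocyte markers. These genes were picked after their values were seen.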
